A study of Mus musculus with 2 samples.

Results

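The elastic fibre and fibulin genes were described here by cell class in mouse liver. The group held 10 genes, Eln, Fbn1, Fbn2, Fbln1, Fbln2, Fbln5, Efemp1, Efemp2, Mfap4 and Mfap5, and all 10 were found by Ensembl identifier among the 30406 genes that both libraries listed. They were chosen by gene family. Their values in these libraries were not a criterion, but earlier results of these data were known when they were chosen. Single liver cells were captured in 2 libraries by the 10x Genomics 3′ droplet method, 1 of uninjured mice (the healthy library) and 1 of mice that had received repeated intraperitoneal injections of the hepatotoxin carbon tetrachloride over weeks (the CCl4 library). Both libraries came from adult mice that carried Col1a2CreER and the Rosa26tdTomato reporter, in which a tamoxifen-activated Cre under the Col1a2 promoter can label collagen-producing cells, and whether tamoxifen was given before these isolations was not given in the sources used here. In both groups the livers were digested with pronase and collagenase, the cells were purified on a Nycodenz gradient, and per the study's methods most CD45-positive immune cells were then removed with magnetic beads. Each condition had 1 library and the number of animals behind it was not given in the sources used here, so no test was made and a difference between classes or conditions has no replicate check. All intervals in brackets are exact 95% intervals that cover counting error only.

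Elastic fibres consist of a core of crosslinked elastin, encoded by Eln, on a scaffold of microfibrils built from the fibrillins Fbn1 and Fbn2. Fibulins are secreted glycoproteins that bind elastin, fibrillins and lysyl oxidases, and Fbln5 and Efemp2 (fibulin-4) are needed for fibre assembly in mice. Mfap4 and Mfap5 (MAGP-2) are microfibril-associated proteins. In liver, elastin is laid down in the walls of vessels, around portal tracts and in fibrotic septa, and Fbln2 and Mfap4 have been used as markers of portal fibroblasts or of activated matrix-producing cells. Stellate cells are the vitamin A-storing pericytes of the sinusoid, portal fibroblasts surround the portal tract, smooth muscle cells sheathe the vessels, and mesothelial cells cover the liver surface.

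Sequence upstream of a member was shown for Efemp1, Fbln5 and Fbln1, because these fibulin genes were lower together in mesothelial-like cells of the CCl4 library (below 0.5 times the healthy level) and their promoter was in the RefSeq table used (build GRCm38.p6, which held a promoter for 6 of the 10 members). Each stretch lies directly before the first base of the annotated gene, outside that gene's exons, and is written 5′ to 3′ on the gene's own strand with the matches to 6 searched motifs in capitals.
Efemp1 (chr11:28852955-28853153, plus strand): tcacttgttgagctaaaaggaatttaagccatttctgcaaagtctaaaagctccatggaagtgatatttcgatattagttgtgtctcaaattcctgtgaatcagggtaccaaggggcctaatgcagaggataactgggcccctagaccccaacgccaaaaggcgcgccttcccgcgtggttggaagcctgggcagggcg
Fbln5 (chr12:101819120-101819369, minus strand): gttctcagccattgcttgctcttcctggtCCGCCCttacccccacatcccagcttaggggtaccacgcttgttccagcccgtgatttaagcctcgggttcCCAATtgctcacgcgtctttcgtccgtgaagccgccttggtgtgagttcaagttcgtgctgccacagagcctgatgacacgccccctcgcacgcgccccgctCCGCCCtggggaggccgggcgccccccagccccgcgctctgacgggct
Fbln1 (chr15:85205699-85205948, plus strand): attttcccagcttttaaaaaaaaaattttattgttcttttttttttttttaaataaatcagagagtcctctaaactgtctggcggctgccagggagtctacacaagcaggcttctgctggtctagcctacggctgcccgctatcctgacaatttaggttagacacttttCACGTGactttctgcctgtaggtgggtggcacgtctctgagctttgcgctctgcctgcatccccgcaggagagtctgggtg
The letters searched on both strands were TGACTCA (AP-1), GGAATG (TEAD), CACGTG (E-box), GGGCGG (Sp1), CCAAT and TATAAA. Of 32851 RefSeq promoter windows, the 250 bases upstream held these motifs in 4.46%, 12.6%, 6.02%, 32.7%, 33.9% and 12.4%, respectively. The Fbln5 stretch held GGGCGG 2 times, both on the opposite strand, and CCAAT 1 time, and the Fbln1 stretch held CACGTG 1 time. The Efemp1 stretch, which was cut to 199 bases at the gene start, held none of the 6, which says only that these letters were not in this window. No motif was present in all 3 stretches.

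The healthy library held 6297 cell barcodes and 51122846 UMIs (unique molecular identifiers, each 1 captured RNA molecule), and the CCl4 library held 8460 barcodes and 97611831 UMIs, with 10 barcode sequences in common. Filtering left 5603 cells in the healthy library, with 6784 UMIs in the median cell, and 7315 in the CCl4 library, with 11880. Clusters were named from marker genes. Cells of the mesenchyme came almost only from the CCl4 library, which held 1723 stellate-like, 657 portal-type fibroblast-like and 161 smooth muscle-like cells against 5, 3 and 9 in the healthy library, so the contrasts between these classes were made within the CCl4 library. A further group of 1303 CCl4 cells, with 4 healthy cells, was led by Dpep1, Thbs4 and Casq2, took no class name, and is called Dpep1-led; it was set apart after its genes were seen. Mesothelial-like cells (231 healthy and 876 CCl4 cells) were the only class that was large in both libraries and also rich in the members. Unnamed cells made up 3.30% of the healthy and 17.9% of the CCl4 cells, in part by a marker threshold set after the clusters were seen.

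The class names held to different degrees. Against all other cells, stellate-like cells had 13 of 14 stellate markers at 2-fold or more, with Lrat at 443 CPM (the class's UMIs of the gene scaled by its total UMIs) and Reln at 879 CPM, and mesothelial-like cells had 12 of 12 mesothelial markers in both libraries. Portal-type fibroblast-like cells had only 5 of 12 portal fibroblast markers (Clec3b, Cd34, Scara5, Ly6c1 and Il33) and none of the stellate markers, the defining markers Thy1 and Pi16 were at 13.1 and 2.22 CPM, and mesothelial Wt1 and Upk3b were at 268 and 126 CPM. In these cells the 12 mesothelial markers summed to 1437 CPM and the 12 portal fibroblast markers to 1025 CPM. In CCl4 Dpep1-led cells 5 of 14 stellate markers (Ngfr, Hand2, Lhx2, Cygb and Steap4) were at 2-fold or more, and that list summed to 3145 CPM. As many-fold higher were 3 of 12 smooth muscle markers (Myh11, Lmod1 and Casq2, list sum 369 CPM). For the portal fibroblast list it was 2 of 12 (Dpt and Col15a1), and the list summed to 1621 CPM, 913 CPM of it from 1 gene. The 3 portal-type fibroblast-like clusters were led by Cxcl13 and Calca, by cell cycle genes, and by Serpinb2 and Enpp2, so the name stands for these clusters only. The smooth muscle-like cluster was led by Actg2, Acta2, Myh11 and Tagln. With its 9 healthy cells it had 6 of 12 smooth muscle markers and 5 of 14 stellate markers. Its 161 CCl4 cells alone had Lrat at 251 CPM and 4 of 14 stellate markers against 3 of 12 smooth muscle markers, and were therefore taken as mixed. Macrophage, T and NK, neutrophil and B cell-like cells of the CCl4 library (509 cells together, called immune-like) should lack RNA of the members. The B cell-like class of 132 cells also had 8 of 10 dendritic cell markers at 2-fold or more. With 30 principal components, 71 CCl4 cells took the B cell name and 61 a dendritic cell name. The immune-like cells were taken to give the level of free RNA, from 1.199 CPM for Mfap5 to 19.6 CPM for Fbn1. Some member UMIs lay in few of them. In 199 macrophage and monocyte-like cells, 30 Efemp1 UMIs lay in 4.52% and 17 Fbln2 UMIs in 2.51% of cells, while 17 Fbn1 UMIs lay in 8.04%. Whether remaining doublets added to the level in immune-like cells was not tested. These cells were shallow, with median UMIs from 2272 to 4838 by class, against 17520 in CCl4 mesothelial-like cells. The same number of free UMIs per cell gives a higher CPM in shallow cells, so a CPM below theirs does not show absence. For genes outside the members, their own RNA may add to the level.

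**Figure D1:**
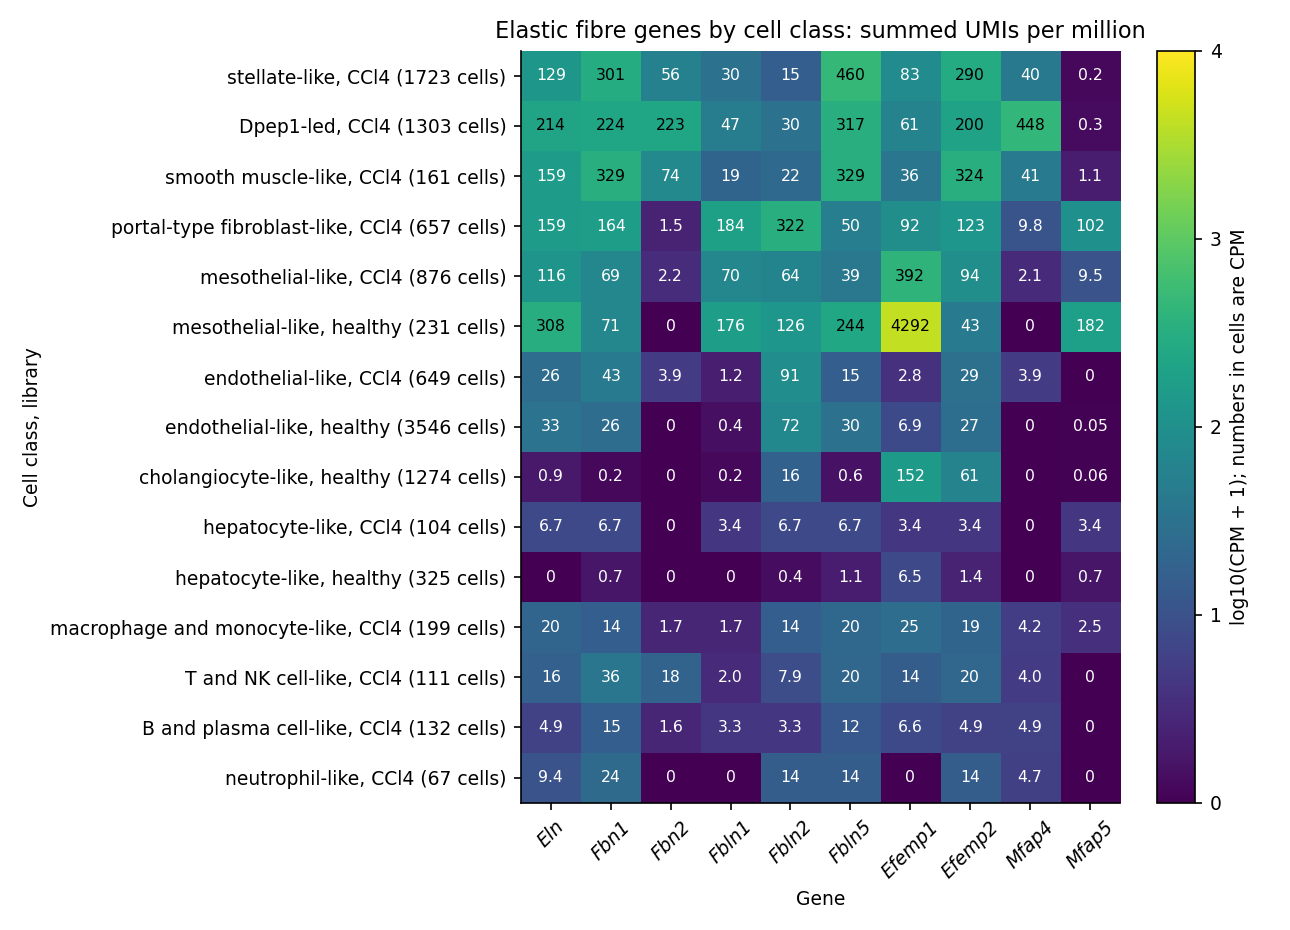
Level of the 10 genes (columns) in 15 populations, a population being 1 cell class in 1 library (rows, with cell numbers). Numbers are CPM from summed UMIs and colour is log10(CPM + 1). Efemp1 in healthy mesothelial-like cells, at 4292 CPM, is the highest value, and the immune-like and hepatocyte-like rows stay at or below 36 CPM for every gene.

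The members did not share 1 source. In the CCl4 library, stellate-like cells held 56.6% of the Fbln5 UMIs, 46.0% of those of Efemp2 and 43.8% of those of Fbn1, against 28.9% of all UMIs. Dpep1-led cells held 83.4% of the Mfap4 UMIs and 64.3% of those of Fbn2, with 21.1% of all UMIs. Portal-type fibroblast-like cells held 89.3% of the Mfap5 UMIs, 65.3% of those of Fbln2 and 48.4% of those of Fbln1, with 17.0% of all UMIs. Mesothelial-like cells held 56.0% of the Efemp1 UMIs, with 18.3% of all UMIs. Eln was the most evenly spread, with 31.4% in Dpep1-led, 25.9% in stellate-like, 18.8% in portal-type fibroblast-like and 14.9% in mesothelial-like cells. In the healthy library, which had few mesenchymal cells, mesothelial-like cells held 99.4% of the Mfap5, 84.6% of the Efemp1, 79.2% of the Fbln1, 62.4% of the Eln and 58.6% of the Fbln5 UMIs with 8.34% of all UMIs. Endothelial-like cells of that library held 64.6% of the Fbln2 and 63.7% of the Fbn1 UMIs, and cholangiocyte-like cells held 58.6% of those of Efemp2. These shares follow the cell makeup of each library as well as the level per cell, and the makeup was set in part by the isolation.

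**Figure D2:**
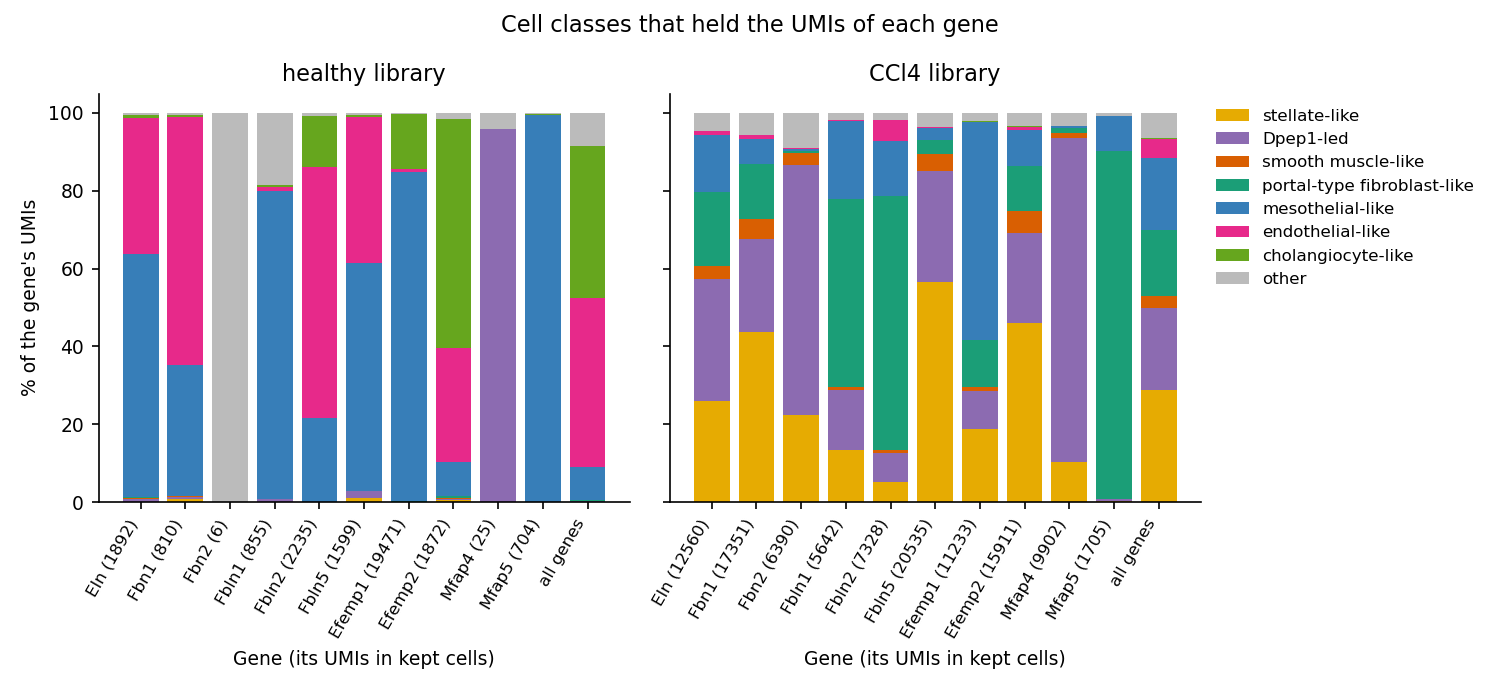
Share of each gene's UMIs (vertical axis, %) held by each cell class (colours) in the healthy (left) and CCl4 (right) library, with the gene's UMIs in kept cells in parentheses and all genes together as the last bar. In the CCl4 library Mfap4 and Fbn2 sit mostly in Dpep1-led cells, Mfap5 and Fbln2 in portal-type fibroblast-like cells and Efemp1 in mesothelial-like cells; Fbn2 and Mfap4 of the healthy library rest on 6 and 25 UMIs.

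Portal-type fibroblast-like and stellate-like cells of the CCl4 library divided the fibulins between them. Of the 10 members, 3 were at 2-fold or more in portal-type fibroblast-like cells (Mfap5, Fbln2 and Fbln1) and 4 were at 0.5 or less (Fbn2, Fbln5, Mfap4 and Efemp2). Over all 14348 genes with at least 10 UMIs, 13.6% were as much higher and 19.5% as much lower, and the median log2 ratio was -0.36 over the members and -0.12 over all genes. Fbln2, a fibulin of basement membranes and elastic fibres, was at 322 CPM [313, 331] in portal-type fibroblast-like and 14.8 CPM [13.3, 16.4] in stellate-like cells, a ratio of 21.8 [19.6, 24.2]. Fbln1, which binds fibronectin and elastin, was at 184 against 29.9 CPM, a ratio of 6.14 [5.67, 6.67]. Mfap5, a microfibril glycoprotein, was at 102 CPM against 0.238 CPM, with 1522 and 6 UMIs and a ratio of 431 [198, 1177]. The stellate-like level of Mfap5 was below that of immune-like cells (1.199 CPM), so only the portal-type fibroblast-like class of the 2 had Mfap5 above the level of free RNA. In the other direction, Fbln5 was at 50.3 CPM [46.8, 54.1] in portal-type fibroblast-like and 460 CPM [452, 469] in stellate-like cells, a ratio of 0.109 [0.102, 0.118]. Fbn2 was at 1.48 against 56.3 CPM, a ratio of 0.0263 [0.0164, 0.0400], and in portal-type fibroblast-like cells it was below the immune-like level of 4.79 CPM. Efemp2, which guides lysyl oxidase to elastin, was at 123 against 290 CPM, a ratio of 0.425 [0.403, 0.447]. Mfap4 was at 9.76 against 40.1 CPM, a ratio of 0.244 [0.203, 0.290] that became 0.51 without doublet removal. Eln, Fbn1 and Efemp1 differed by less than 2-fold, with ratios of 1.23 [1.17, 1.30], 0.547 [0.522, 0.573] and 1.11 [1.04, 1.19].

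The shares of cells with a UMI gave the same split. After each cell was thinned to 2000 UMIs (642 portal-type fibroblast-like and 1674 stellate-like cells, 15 and 49 left out), 43.2% and 2.53% of cells had a UMI of Fbln2, 31.1% and 5.91% of Fbln1, and 9.35% and 55.2% of Fbln5. Without thinning the shares were 91.6% and 13.7% for Fbln2, 86.5% and 28.3% for Fbln1, and 49.0% and 92.0% for Fbln5. In immune-like cells, of lower depth (median UMIs from 2272 to 4838), the unthinned shares were 2.55%, 0.982% and 6.88%. Mfap5 was patchy: 34.1% of portal-type fibroblast-like cells had a UMI, the median cell had 0 and the highest 80 UMIs.

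**Figure D3:**
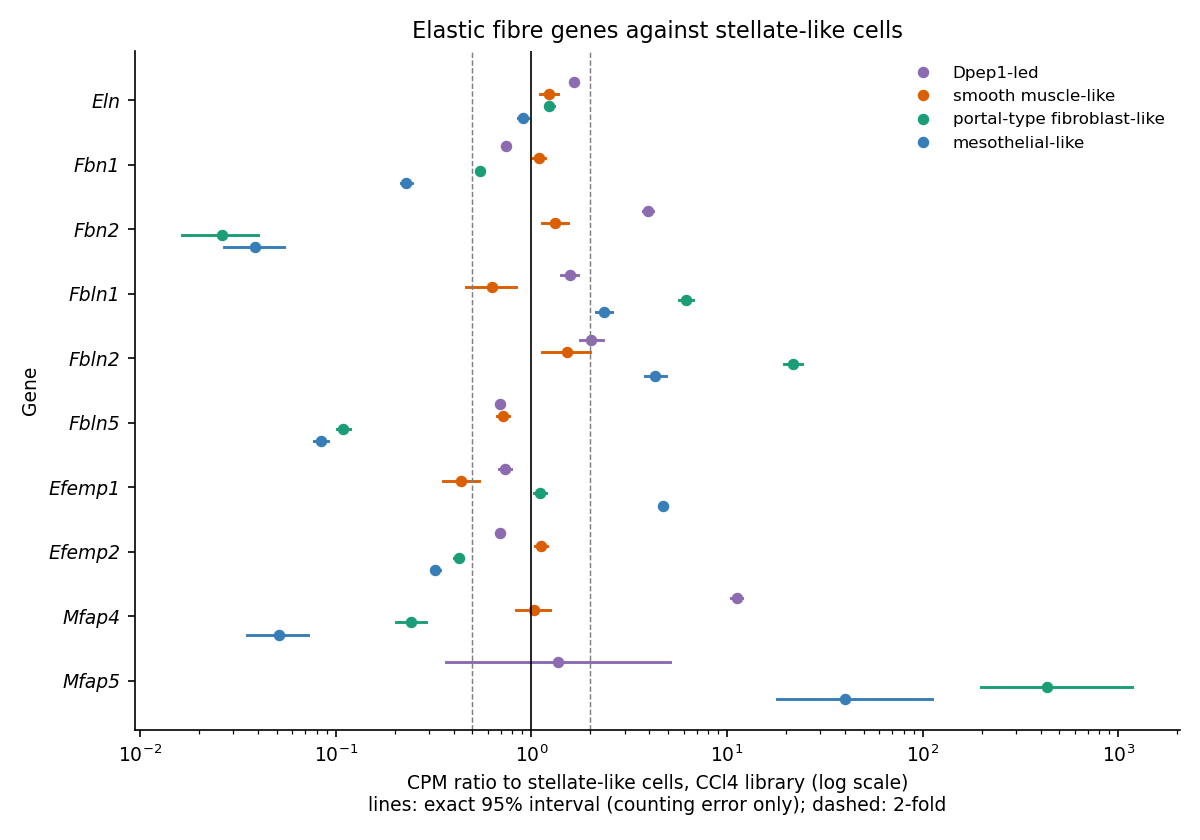
CPM ratio of each gene to stellate-like cells of the CCl4 library (horizontal axis, log scale) for 4 groups of cells (colours), with exact 95% intervals for counting error and dashed lines at 2-fold. Fbln5, Fbn2 and Mfap4 lie left of 0.5 in portal-type fibroblast-like and mesothelial-like cells, where Fbln1, Fbln2 and Mfap5 lie right of 2; Mfap5 has no ratio for smooth muscle-like cells, with under 10 UMIs in the pair.

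Mesothelial-like cells of the CCl4 library differed from stellate-like cells in 9 of 10 members. Efemp1 (fibulin-3), Fbln2, Fbln1 and Mfap5 were at 2-fold or more and Fbn1, Efemp2, Fbln5, Mfap4 and Fbn2 at 0.5 or less, where 16.8% of 14555 genes were as much higher and 18.2% as much lower. The median log2 ratio was -0.89 over the members and 0.03 over all genes. Efemp1 was at 392 CPM [382, 402] in mesothelial-like and 83.0 CPM [79.5, 86.7] in stellate-like cells, a ratio of 4.72 [4.49, 4.96]. Fbln2 had a ratio of 4.30 [3.82, 4.86] and Fbln1 of 2.35 [2.14, 2.58], and the latter was 1.89 when Dpep1-led cells were counted as stellate-like. Fbln5 was at 38.7 CPM, a ratio of 0.0842 [0.0775, 0.0912], and Fbn1 at 68.9 CPM, a ratio of 0.229 [0.215, 0.244]. Fbn2 and Mfap4, at 2.18 and 2.06 CPM, were below their immune-like levels. Eln was the exception, at 116 CPM against 129 CPM, a ratio of 0.902 [0.852, 0.956].

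Dpep1-led cells had more Mfap4 and Fbn2 than stellate-like cells, and were within 2-fold of them for Eln, Fbn1, Fbln1, Fbln5, Efemp1 and Efemp2. Mfap4, a fibrinogen-related microfibril protein, was at 448 CPM [438, 458] against 40.1 CPM [37.6, 42.6], a ratio of 11.2 [10.5, 11.9], and 89.7% against 25.01% of cells had a UMI (50.8% and 6.35% after thinning). Fbn2, the fibrillin typical of developing tissue, was at 223 against 56.3 CPM, a ratio of 3.96 [3.72, 4.21]. Eln was at 214 CPM [207, 221], a ratio of 1.66 [1.58, 1.74]. Fbln5, Efemp2 and Fbn1 were lower by less than 2-fold, with ratios of 0.689, 0.691 and 0.746. In all, 3 members were at 2-fold or more and 0 at 0.5 or less, beside 9.42% higher and 8.33% lower of 14282 genes. The third, Fbln2, had a ratio of 2.03 [1.77, 2.32], and 7 of the 12 settings run for this contrast put it below 2. The 4 healthy cells in these clusters had 24 Mfap4 and 28 Fbln5 UMIs, and they held 24 of the 25 Mfap4 UMIs of the healthy library.

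Levels varied between clusters of 1 class. Over the 6 stellate-like clusters Fbn1 ranged from 248 to 344 CPM and Efemp2 from 191 to 344 CPM, while Fbn2 ranged from 12.6 to 103 CPM and Mfap4 from 5.398 to 97.4 CPM. The lowest Fbn1, Efemp2 and Mfap4 were in 1 cluster of 118 cells led by Pde2a, Vipr1 and Erg. That cluster had 4 endothelial markers beside 10 of 14 stellate markers and may be mixed. Fbln5 ranged from 193 to 596 CPM, lowest in the cycling cluster led by Cenpf and Knl1, which also had the highest Fbn2 and Mfap4, and highest in the cluster led by Pi15 and Bco1. Over the 3 Dpep1-led clusters Mfap4 ranged from 408 to 482 CPM and Fbn2 from 178 to 257 CPM, above every stellate-like cluster. Over the 3 portal-type fibroblast-like clusters Fbln5 ranged from 40.4 to 51.8 CPM and Fbln2 from 232 to 452 CPM, also outside the stellate-like range (6.29 to 31.1 CPM for Fbln2). Fbln2 and Fbln1 were highest in the cluster led by Cxcl13, and Mfap5, from 27.3 to 148 CPM, was lowest there. A CCl4 cluster of 487 cells, led by Gm26917, Carmn and Dnm3os, had 7 of 14 stellate markers but was left unnamed for its few UMIs (median 2586). It had Fbn1 at 510 CPM, Fbn2 at 350 CPM and Eln at 287 CPM. This Fbn2 level was above that of every Dpep1-led cluster.

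**Figure D4:**
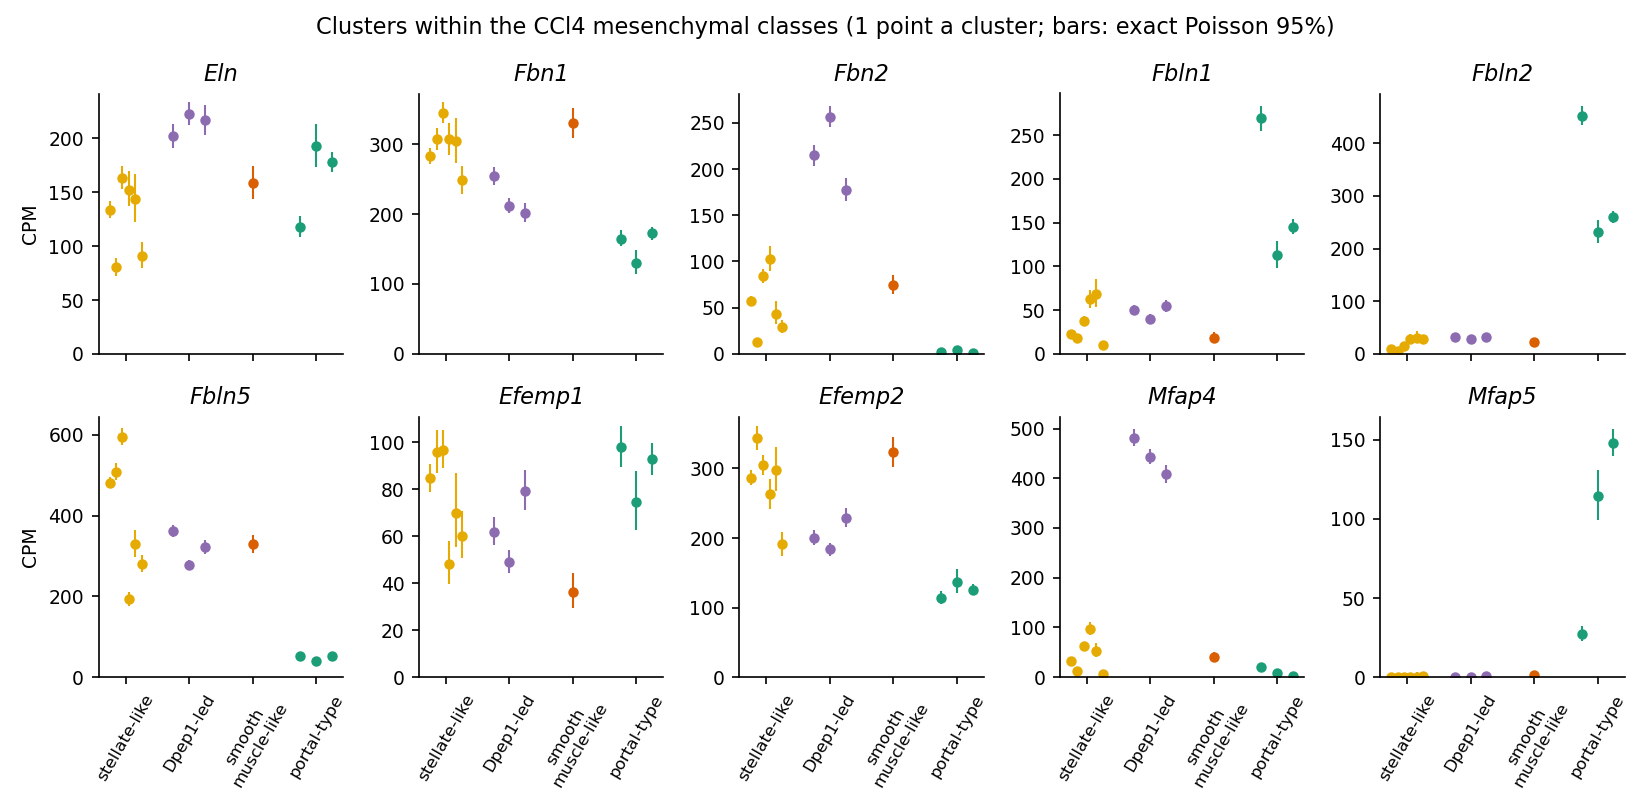
CPM of each gene (1 panel a gene, vertical axis) in each cluster (points, with exact Poisson 95% intervals) of 4 groups of CCl4 cells. The 3 Dpep1-led clusters lie above all others shown for Fbn2 and Mfap4, and the 3 portal-type fibroblast-like clusters lie apart from the stellate-like clusters for Fbln1, Fbln2, Fbln5 and Mfap5. Unnamed clusters are not shown.

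The smooth muscle-like cluster of 161 cells resembled stellate-like cells in level for most members, with ratios from 0.628 for Fbln1 to 1.52 for Fbln2 and only Efemp1 past 2-fold, at 36.4 against 83.0 CPM (0.439 [0.355, 0.537]). Of 13504 genes, 4.24% were 2-fold higher and 9.19% lower, and all genes had a median log2 ratio of -0.17. This class was the least stable. With 30 principal components in place of 10, 14 CCl4 cells took the name, with Myh11 at 1849 CPM, Acta2 at 11500 CPM and Lrat at 6.98 CPM, and 13 cells did so with a mitochondrial limit of 10%. In the 14 cells Eln was at 733 CPM [599, 887], a ratio of 5.71 [4.65, 6.93] to stellate-like cells of the same clustering, and Fbln5 at 62.8 CPM [28.7, 119], a ratio of 0.136 [0.0624, 0.259]. The Eln value rests on 105 UMIs. Eln was uneven in the cluster of 161 cells, where 10 cells held 43.85% of its UMIs, and the intervals do not cover such spread. The 14 cells had 0 UMIs of Mfap4, where 3 UMIs would be 20.9 CPM, and Fbn1 was at 265 CPM. In the 13 cells Eln was at 748 CPM and Fbln5 at 180 CPM. Hepatocyte Alb was at 1425 CPM in the 13 cells and 76.7 CPM in the 14. The 9 healthy smooth muscle-like cells, with Myh11 at 3864 CPM, had 5 Eln, 6 Efemp2 and 2 Fbn1 UMIs.

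Between mesothelial-like cells of the 2 libraries, Efemp1 had the largest difference in CPM of the 10 members. It was at 4292 CPM [4227, 4358] in the healthy library, where all 231 cells had a UMI and the median cell had 4185 CPM, and at 392 CPM [382, 402] in the CCl4 library, where 94.9% of 876 cells had a UMI and the median cell had 319 CPM. The ratio of CCl4 to healthy was 0.0913 [0.0887, 0.0940]. The highest CCl4 cell, at 1750 CPM, was below the healthy lower quartile of 3146 CPM, and the lowest healthy cell was at 405 CPM. The cells of the libraries overlapped: 333 of 876 CCl4 cells were at or above that lowest healthy cell, and 12 of 231 healthy cells were at or below the highest CCl4 cell. Thinned to 2000 UMIs, 99.5% of healthy and 49.1% of CCl4 cells had a UMI.

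Among the members, 5 were lower and 3 higher by 2-fold or more in CCl4 than in healthy mesothelial-like cells, beside 13.5% lower and 12.8% higher of 13389 genes, and the median log2 ratio was -1.16 over the members and -0.04 over all genes. Fbln5 was at 244 CPM [229, 260] in healthy and 38.7 CPM [35.7, 41.9] in CCl4 cells, a ratio of 0.159 [0.143, 0.176]. Eln was at 308 against 116 CPM (0.379 [0.352, 0.407]) and Fbln1 at 176 against 70.2 CPM (0.398 [0.362, 0.439]). Fbln2, at 126 against 63.7 CPM, had a ratio of 0.506 [0.453, 0.564], just short of 2-fold, and Fbn1 was at 71.1 and 68.9 CPM, a ratio of 0.969 [0.848, 1.11]. Mfap5 was at 182 CPM in healthy cells, 72.3% of which had a UMI, and at 9.54 CPM in CCl4 cells, a ratio of 0.0523 [0.0436, 0.0624]. In the CCl4 class 33 cells had a Mfap5 UMI and 10 of them held 75.8% of its 153 UMIs, and other clusterings gave ratios down to 0.00813. Efemp2 went the other way, from 43.5 to 93.7 CPM, a ratio of 2.15 [1.84, 2.54] that was 1.99 when every cell weighed the same. Fbn2 and Mfap4 had 0 healthy UMIs and 35 and 33 CCl4 UMIs. They were at least 2.79-fold and 2.63-fold higher when 0 is taken as 3 UMIs, the floor used for all such bounds. Their CCl4 levels in CPM were below those of the shallower immune-like cells. After the immune-like UMIs per cell (0.0236 for Fbn2 and 0.0216 for Mfap4) were subtracted from the CCl4 cells, the ratios were 1.145 and 1.123.

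The mesothelial-like cells of the libraries formed separate clusters, the healthy one led by Myl7, Prph and Slc26a3 and the CCl4 one by Prg4, Adra2a and Tm4sf5. The summed level of the 12 mesothelial markers was 12220 CPM in healthy and 5274 CPM in CCl4 cells, with Msln at 2492 and 605 CPM, and 10 of the 12 were lower in the CCl4 cells. The summed level of the 12 portal fibroblast markers was 2595 and 1046 CPM, most of it from Gas1 (2117 and 811 CPM). Of the 12, 4 (Gas1, Cd34, Il33 and Thy1) were lower, 7 were higher and Ccl11 was at 0 in both. Among the 7, Entpd2 was at 38.0 and 44.2 CPM and Clec3b at 38.3 and 57.8 CPM. Dpt, Col15a1, Pi16, Scara5 and Ly6c1 reached at most 5.36 CPM in the CCl4 cells. Pdgfra was at 1.30 CPM in healthy and 231 CPM in CCl4 mesothelial-like cells. The part of these shifts in the member ratios was not tested. Library, software version and injury cannot be told apart in this design.

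**Figure D5:**
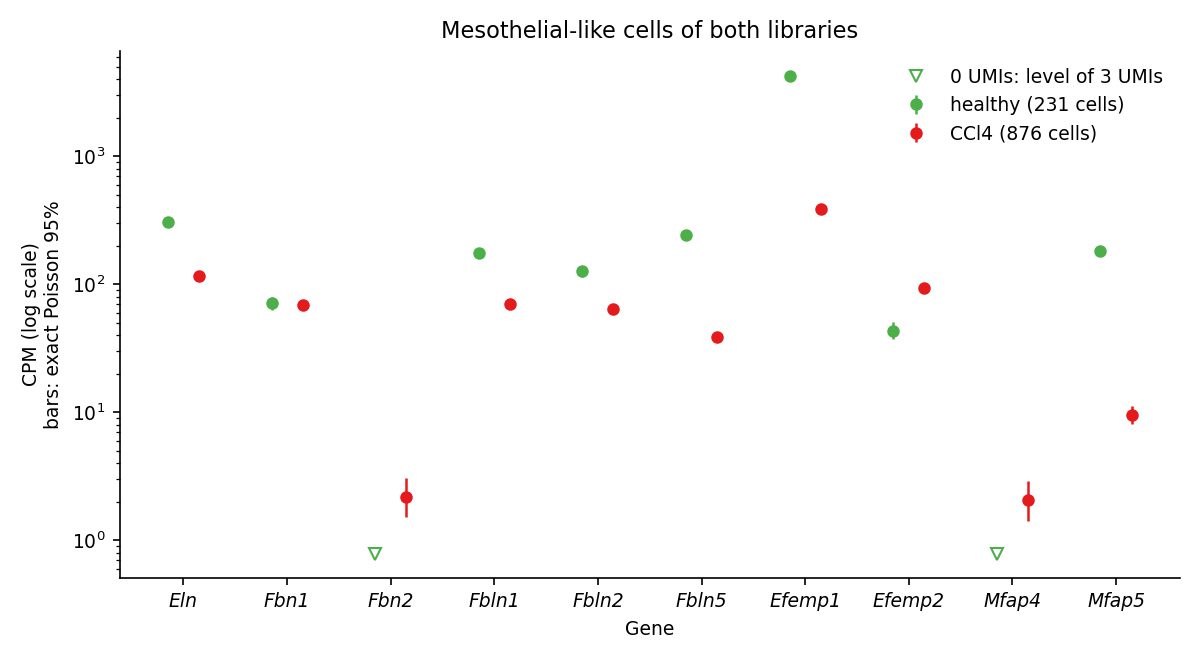
CPM (log axis) of the 10 genes in mesothelial-like cells of the healthy (green) and CCl4 (red) library, with exact Poisson 95% intervals; open triangles mark genes with 0 UMIs at the level of 3 UMIs. Efemp1, Mfap5, Fbln5, Eln and Fbln1 lie lower in the CCl4 library, Fbn1 is level and Efemp2 lies higher.

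Outside mesenchyme and mesothelium, cholangiocyte-like cells held 4162 and endothelial-like cells 3918 member UMIs in the healthy library. A cluster of 707 healthy endothelial-like cells led by Ccl21a, Mmrn1 and Vwf, genes of larger vessels and lymphatics, had Fbln2 at 357 CPM [332, 384] and Eln and Fbln5 each at 232 CPM [212, 253]. The main sinusoidal cluster (2113 cells, led by Clec4g and Cd300lg) had these genes at 42.8, 10.3 and 6.81 CPM, while Efemp2, at 28.2 and 27.2 CPM, was level between the clusters. The cluster of 707 was shallow. Its median cell had 0.234 times the library's median UMIs, against 1.02 times in the sinusoidal cluster. In the 1274 healthy cholangiocyte-like cells Efemp1 was at 152 CPM [147, 158] and Efemp2 at 61.1 CPM [57.6, 64.8], whereas Eln, Fbn1 and Fbln5 were each below 1 CPM. The 325 healthy hepatocyte-like cells had at most 6.51 CPM of any member. Against healthy cells, CCl4 endothelial-like cells had Efemp1 at a ratio of 0.403 [0.203, 0.727], Fbln5 at 0.487 [0.370, 0.632] and Eln at 0.7765 [0.629, 0.951]. Higher were Fbn1 (1.68 [1.41, 1.99]) and Fbln2 (1.27 [1.13, 1.42]). Fbn2 and Mfap4 had 17 UMIs each against 0, but at 3.92 CPM both were below their immune-like levels of 4.79 and 4.395 CPM. The part of free RNA in these UMIs was not tested. Efemp2 was level (1.07). The cluster of 707 had 1 CCl4 cell, so the makeup of this class differed. In 23 CCl4 cholangiocyte-like cells Efemp1 had a ratio of 0.513 [0.293, 0.834] and Efemp2 of 0.958. An unnamed cluster of 174 healthy cells led by Rpl39l, Sox2 and Tubb3 had Fbln1 at 177 CPM [150, 207] and all 6 Fbn2 UMIs of the healthy library.

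The wider elastic fibre list held 23 other genes, the fibrillin-binding, crosslinking and latent TGF-beta binding genes of the pathway. Against stellate-like cells, portal-type fibroblast-like cells had 2 of 21 measured genes at 2-fold or more and 13 at 0.5 or less, beside 13.6% and 19.5% of all genes, with a median log2 ratio of -1.40 against -0.12 over all genes. Emilin2, an elastin-microfibril glycoprotein, was higher (86.5 against 0.792 CPM, ratio 109 [70.4, 179]), and immune-like cells, at 85.9 CPM, were also above stellate-like cells. Hmcn1, the fibulin-related hemicentin, was at a ratio of 2.02 [1.87, 2.18]. The lowest were Adamtsl2, a fibrillin-binding protein (5.38 against 405 CPM, ratio 0.0133 [0.0105, 0.0166], the first value below the immune-like 20.4 CPM), Fbln7 (0.0221), Ltbp1 (0.0711) and the lysyl oxidase gene Loxl4 (0.0890). Emilin1 was at 107 against 603 CPM and Lox, which crosslinks elastin, was level at 107 against 108 CPM. In mesothelial-like cells of the CCl4 library 3 genes were higher (Emilin2, Ltbp2 and Ltbp3, ratios 4.64, 2.28 and 2.17) and 10 lower of 21, beside 16.8% and 18.2% of all genes, with list and all-gene medians of -0.56 and 0.03. Among the lower were Fbln7 with 0 UMIs (a ratio of at most 0.00768 at a floor of 3 UMIs, against 615 stellate-like UMIs), Adamtsl2 (0.0154), Emilin1 (0.0430) and Mfap2 (0.0569). Dpep1-led cells had 3 higher, Ltbp2 (881 against 114 CPM, ratio 7.73 [7.43, 8.04]), Emilin2 (3.08) and the elastin crosslinking gene Loxl1 (490 against 169 CPM, 2.90 [2.80, 3.01]), and 2 lower, Loxl4 (0.316) and Hmcn1 (0.376), of 21, beside 9.42% and 8.33% of all genes. The smooth muscle-like cluster had 0 higher and 1 lower of 21, Emilin2 with 1 UMI, beside 4.24% and 9.19% of all genes.

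Between mesothelial-like cells of the libraries the same list split evenly, with 7 of 19 measured genes higher and 7 lower in the CCl4 library. Beside this, 12.8% of all genes were as much higher and 13.5% as much lower, and the median log2 ratio was 0.09 over the list and -0.04 over all genes. Ltbp2 had 0 healthy and 4166 CCl4 UMIs, at least 332-fold higher at a floor of 3 UMIs, and its CCl4 level of 259.7 CPM was above the immune-like 32.4 CPM. Hmcn1 was at 63.1 against 6.25 CPM (10.1 [6.75, 15.8]; immune-like 6.39 CPM), and Lox at 179 against 25.8 CPM (6.94 [5.68, 8.57]; immune-like 8.79 CPM). The other 4 of the 7 higher genes were in CCl4 mesothelial-like cells below their immune-like level: Emilin1 at 25.9 CPM (ratio 24.8 [9.63, 91.6]; immune-like 41.9 CPM), Adamtsl2 at 6.24 CPM (100 against 0 UMIs; immune-like 20.4 CPM), Mfap2 and Emilin2. The part of free RNA in their ratios was not tested. The genes lower by the widest margin were Adamtsl5 (0.169 [0.140, 0.203]), Ltbp1 (0.234 [0.215, 0.254]), Loxl4 with 7 UMIs in each library (0.239 [0.0717, 0.7998]) and Ltbp4 (220 against 790 CPM, 0.279 [0.265, 0.292]), which binds fibulins and promotes elastic fibre assembly. The lysyl oxidase gene Lox lay higher in the same cells in which Eln and Fbln5 lay lower.

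Across the 15 named or Dpep1-led populations of at least 30 cells, the members fell into loose sets by the Pearson correlation of log2(CPM + 10). These populations share 2 libraries and differ in depth, so the values are descriptions only. Fbn2 and Mfap4 were most alike (r = 0.94), followed by Fbn1 and Fbln5 (0.91), Eln and Fbln5 (0.90), and Eln and Fbn1 (0.89). Mfap5 was most like Fbln1 (0.82) and least like Fbn2 (-0.26). Among the 7471 other genes that reached 50 CPM in a population, the closest to Eln were Htra1, Gpx8 and Pcolce (0.985, 0.969 and 0.964), and those closest to Fbn1 were Loxl2, Col5a2 and Fstl1 (0.981, 0.974 and 0.958). For Fbn2 they were Daam2, Sdk2 and Fhl2, for Mfap4 Itgbl1, Tmem100 and Mamdc2, and for Mfap5 Gjb5, Has1 and Calcb, all between 0.931 and 0.973. Fbln1 was closest to Rpp25, Ptgis and Gas1, Fbln2 to Heg1, Il33 and Map1b, Fbln5 to Foxs1, Runx1t1 and Plat, Efemp1 to Ninl, Smtnl2 and Fzd7, and Efemp2 to Hspb2, Gpx7 and Afap1, between 0.895 and 0.966.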

How the data were processed

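For each library the authors deposited raw UMI counts per gene and cell barcode, as whole numbers without normalization; the matrix headers name software versions 3.1.0 (healthy) and 6.0.1 (CCl4), and the lowest total was 500 UMIs in both. The submitters' processing notes list both a human and a mouse genome build, and the identifiers in the files are of mouse. Genes listed in both files (30406, with 99.9% and 99.6% of the UMIs) were matched by identifier. Barcodes needed 500 UMIs, 200 genes and no more than 30% mitochondrial UMIs, which removed 339 and 504 cells, and the cells with the highest Scrublet doublet scores were removed at an expected 0.8% per 1000 cells (276 and 486). Clustering used scanpy 1.11.5 with 2000 variable genes without the members and the pathway list, 10 principal components, 20 neighbours and Leiden resolution 1, and mesenchymal cells were clustered again on their own. A class name needed at least 3 markers at 2-fold in 10% of cells and at least 33.3% of the list's markers. The condition of 33.3% was set after the clusters were seen. A name was also withheld where another class had more markers among the cluster's 10 leading genes. The same was done where the median cell had under 33.3% of its library's median UMIs and no leading gene was a marker of the class. UMIs were summed by class and library and divided by the total as CPM, which needs no length scaling in a 3′ method. Poisson, conditional binomial (ratios) and Clopper-Pearson (shares) intervals were exact. A ratio needed 10 UMIs in the pair, 0 UMIs were set to 3 for bounds, and 2-fold was the limit. The text names all members, pathway genes past 2-fold (at most 4 a direction), leading genes of clusters with at least 50 CPM, and the 3 genes most like each member; Lox and Emilin1 and the values of the 13 and 14 smooth muscle-like cells were added after their values were seen. Members and lists were chosen with earlier results of these data known. edgeR 4.0.16 gave TMM factors for an alternative scaling. The ratio code was tested on simulated data.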

Additional observations from a re-analysis of the deposited data

How the results depend on the processing

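No paired analysis was possible because each condition had 1 library. Of 28 ratios past 2-fold, 21 stayed past it in every setting run and 0 reversed, over 13 settings of which 3 were chosen after seeing the data (Dpep1-led cells counted as stellate-like, cycling clusters left out, and unnamed cells with mesothelial markers counted as mesothelial-like). The counts against stellate-like cells held within 1.5 times for the portal-type fibroblast-like and mesothelial-like classes. The smooth muscle-like counts, 0 higher and 1 lower, did not hold. Where other cells took the name, they were 1 and 5 with a mitochondrial limit of 10% and with 30 principal components, 4 and 0 without doublet removal, and 5 and 0 when the members took part in the clustering. With Dpep1-led cells counted as stellate-like, which changes the cells compared against, they were 1 and 2. Of these members, 1 was higher without cycling clusters, with every cell weighing the same and without a minimum of UMIs. A fold of 1.5 gave 1 higher and 2 lower, and a fold of 3 gave 0 lower. Clustering each library on its own named 0 CCl4 smooth muscle-like cells, so that contrast was not run. In Dpep1-led cells a fold of 1.5 gave 5 higher members in place of 3. In CCl4 against healthy mesothelial-like cells 1 member in place of 3 was higher after the background was subtracted, and a fold of 3 gave 0 higher and 3 lower. TMM scaling moved the median of all genes from -0.17 to 0 in the smooth muscle-like contrast and from -0.12 to -0.02 in the portal-type fibroblast-like one, and the cause of other changes was not tested. Depth limits the populations of few cells most: in the 15 healthy macrophage and monocyte-like cells 3 UMIs were worth 18.6 CPM.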
